A study of Mus musculus with 6 samples.

Results

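The gain of CD11b among CD27+ natural killer (NK) cells was examined by setting the 2 arrays of CD27+CD11b+ cells against the 2 arrays of CD27+CD11b- cells, 4 of the 6 arrays in the series, over the 34945 of 45101 probe sets that carry 1 gene symbol (18193 genes). NK1.1+ cells came from the spleens of RAG-/- mice, in which antigen receptor genes stay unrearranged and mature T and B cells are missing, and this deletion is shared by every group. The groups were sorted by flow cytometry as NK1.1+ CD27+ CD11b- and NK1.1+ CD27+ CD11b+; the third group, NK1.1+ CD27- CD11b+, also of 2 arrays, entered the model as a source of spread and for side-by-side values. Arrays were grouped by title; the sort text of CD27-CD11b+ replicate 1 names another gate than its title. The labels used here give no age or treatment and do not say if the replicates, called independent by the submitters, were different animals or pools, so the p-values reflect only how far these samples spread, which could be a technical spread.

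CD11b, the product of Itgam, is the alpha chain of an integrin that binds complement fragments and adhesion molecules, and CD27 delivers co-stimulation as a relative of the tumour necrosis factor receptors. Cells with CD27 alone are commonly taken as the less mature NK cells of the mouse spleen and cells that also carry CD11b as a later stage with more killing capacity. NK cells kill by releasing granules that hold perforin, which opens the target membrane, and granzymes, proteases that start cell death inside the target. Helper innate lymphoid cells share a progenitor with NK cells but depend on the receptor for interleukin 7 and make cytokines rather than granules.

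The values are log2 expression after RMA, and array medians lay between 5.26 and 5.36. Itgam stood at 6.37 and 5.88 on the CD27+CD11b- arrays and at 8.69 and 8.01 on the CD27+CD11b+ arrays. Cd27 was 8.78 and 8.03 against 8.92 and 8.21, so both markers followed the sort. On CD27-CD11b+ replicate 1, whose sort text names another gate, Itgam was 9.93 and Cd27 6.96, beside 9.44 and 6.47 on replicate 2. All 13 measured NK cell markers were above the background level of 6.39, which is the 95th percentile of the means of 57 genes of other tissues: Ncr1, the activating receptor NKp46, ran from 9.84 to 10.71 over the 4 arrays. A second division of the arrays ran across the subsets. On 3 probe sets without a gene name the replicate 1 arrays averaged 4.38 and 4.47 and the replicate 2 arrays 12.57 and 12.81, so within the CD27+ cells this division coincides with the replicate number. In CD27-CD11b+ cells it runs the other way, with replicate 1 at 12.61 and replicate 2 at 4.33. These 3 probe sets were picked, among the 9160 without a symbol, for the widest gap between the 3 lower and the 3 higher arrays. A split of 3 arrays against 3 was thus set by the choice, while which arrays fell together was not. The differences below are therefore also given between the replicate 1 arrays and between the replicate 2 arrays. Across all genes the arrays of the same number were slightly closer (r = 0.992 and 0.994) than the arrays of the same subset (r = 0.990 for each), correlations over genes that share these arrays.

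The first question was which transcripts accompany the gain of CD11b. Few genes passed, and most of them fell: the proteases Cma1 and Gzmb and the receptors Klrg1 and Cmklr1 rose, while Il7r, Trgv1 and the membrane proteins Tmem176a and Tmem176b fell. Of 18193 genes, 690 (3.79%) had an unadjusted p under 0.05 and 22 passed the threshold of an adjusted p under 0.05 in limma, which is 0.121% of those tested. There were 6 higher (0.033%) and 16 lower (0.0879%) in CD27+CD11b+ cells, against a median difference of -0.01 over all genes. All 22 differed at least 2-fold in the same direction between the replicate 1 arrays and between the replicate 2 arrays, a pattern met by 53 genes (0.291% of all), 8 higher (0.044%) and 45 lower (0.247%). With the added condition of lying above background in either subset these were 7 (0.0385%) and 39 (0.214%). The replicate 1 arrays alone differed 2-fold in 147 genes (0.808%) and the replicate 2 arrays alone in 109 (0.599%). No gene differed at least 2-fold in opposite directions in the pairs. Leaving out an array of CD27+CD11b- cells gave 30 calls (replicate 1) or 10 (replicate 2), leaving out an array of CD27+CD11b+ cells gave 4 (replicate 1) or 5 (replicate 2), and leaving out either array of CD27-CD11b+ cells gave 12. Without 1 CD27-CD11b+ array the other adds no spread, so these last 2 cases are both the same test as a fit of the 4 CD27+ arrays alone. The 6 cases counted below are thus not all distinct tests. The count of calls was 0 (lowest adjusted p = 0.050 in limma, 1339 probe sets at an unadjusted p under 0.05) when all 45037 probe sets were tested together. Trgv1, Il7r and Cd163l1 passed with any 1 of the 6 arrays left out, Acpp and Tmem176b in 5 of the 6 cases, Cma1, Klrg1 and Trgv4 in 4, Cd200r1 and Tmem176a in 3 and Serpinb9b in 2. Gzmb, Itgam, Ikzf2, Inpp4b, Ckb, Tnfrsf25 and Psd2 passed in 1 of the 6 cases, and Cd160, Cd22, Cdon and Cmklr1 in 0. With the array division, itself picked from these same data, as a block 58 genes passed, the 22 among them. With the replicate number as a block over the 6 arrays 19 passed, 18 of them among the 22.

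**Figure D1:**
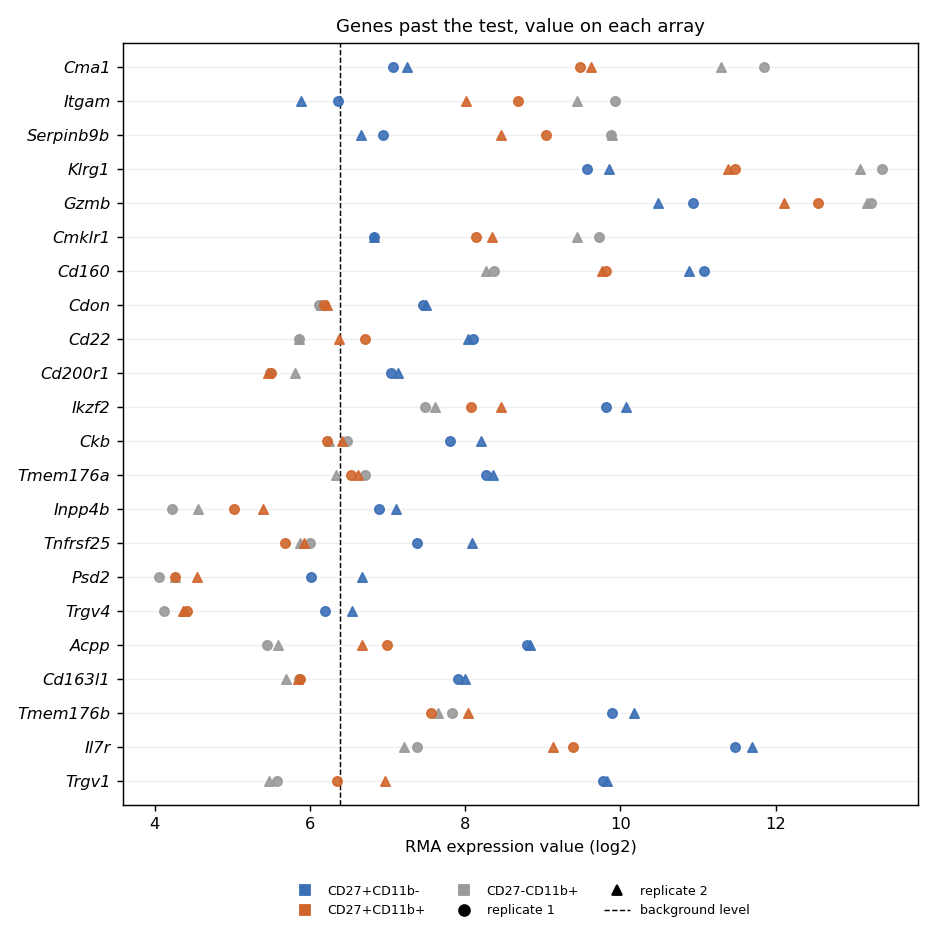
Each row is a gene that passed the test, ordered by its difference, and each point is its RMA value (log2) on 1 array, coloured by subset and shaped by replicate, with the background level of 6.39 dashed. The points of CD27+CD11b+ and CD27+CD11b- cells do not overlap in any of the 22 rows, and the CD27-CD11b+ points continue the direction in some rows and stay beside CD27+CD11b+ in others.

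**Figure D2:**
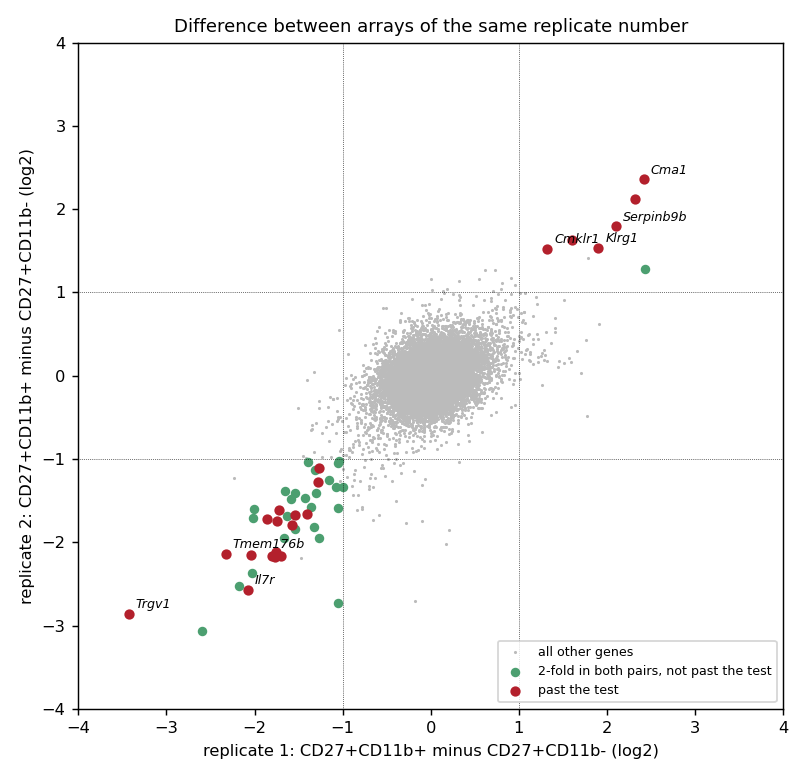
Each point is a gene, placed by its log2 difference between CD27+CD11b+ and CD27+CD11b- cells in the replicate 1 arrays (x axis) and in the replicate 2 arrays (y axis), with dotted lines at a 2-fold difference. The genes past the test lie in the upper right and lower left corners, beyond the lines on both axes, and the other corners are empty.

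Among the killing genes, Cma1, Gzmb and Serpinb9b rose. Cma1 encodes a chymase, a serine protease best known from mast cell granules. It stood at 7.07 and 7.25 on the CD27+CD11b- arrays and at 9.48 and 9.62 on the CD27+CD11b+ arrays, a difference of 2.39 (SE 0.20, limma adjusted p = 0.00993). Both CD27+CD11b+ arrays were thus far above both CD27+CD11b- arrays. Gzmb, granzyme B, was at 10.93 and 10.48 and then at 12.54 and 12.11 (difference 1.62, SE 0.21, limma adjusted p = 0.0484, and up to 0.275 with 1 array left out). The replicate 1 array was the higher of its subset both times, and the pairs differed by 1.61 and 1.63. Serpinb9b belongs to the intracellular serpins, protease inhibitors of which some members block granzymes. Its values were 6.94 and 6.67 against 9.04 and 8.46, a 3.85-fold difference (SE 0.21 on the log2 scale, limma adjusted p = 0.0217).

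Cma1 and Gzmb lie at opposite ends of a run of protease genes, with 12 measured genes between them in the RefSeq gene order. Of these 12, Gzmc alone was above background in either subset, and its values lay the other way, at 7.04 and 7.60 against 5.69 and 6.96 (difference -1.0, SE 0.39, limma adjusted p = 1.0). The granzymes Gzmd, Gzme, Gzmf, Gzmg and Gzmn, the mast cell proteases Mcpt1, Mcpt2, Mcpt4 and Mcpt8 and the neutrophil protease Ctsg were all near background. Of the 14 measured mast cell and basophil markers only Cma1 passed, and only Cma1 and Kit were above background. Cpa3 and Fcer1a, a mast cell protease and the chain that binds IgE, were no higher than 4.08 on any CD27+ array. The mean of those 14 markers was 5.09 and 5.18 in CD27+CD11b- and 5.21 and 5.18 in CD27+CD11b+.

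The 250 bases before the start of Gzmb and Cma1 are shown because these proteases rose together from opposite ends of the run, and those of Il7r because its fall was called with any array left out. They are from RefSeq on GRCm38.p6, 5′ to 3′ on the strand of the gene, which is the minus strand for all 3. Capitals mark letters of sites that lymphoid factors use: TGTGGT (RUNX) and TGACTCA (AP-1) in Gzmb and ACTTCCTG (ETS) in Il7r, each searched on both strands (TGAGTCA in Gzmb is TGACTCA on the other strand). Cma1 holds none of these, nor CTTTGAT or CTTTGAA (TCF/LEF) or AGGTGT (T-box), and so has no capitals.
Gzmb, chr14:56262335-56262584: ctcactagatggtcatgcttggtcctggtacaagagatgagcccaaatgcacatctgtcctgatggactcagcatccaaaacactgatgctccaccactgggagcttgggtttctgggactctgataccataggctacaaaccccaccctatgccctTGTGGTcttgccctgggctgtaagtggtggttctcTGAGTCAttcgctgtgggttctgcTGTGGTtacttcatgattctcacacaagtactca
Cma1, chr14:55944676-55944925: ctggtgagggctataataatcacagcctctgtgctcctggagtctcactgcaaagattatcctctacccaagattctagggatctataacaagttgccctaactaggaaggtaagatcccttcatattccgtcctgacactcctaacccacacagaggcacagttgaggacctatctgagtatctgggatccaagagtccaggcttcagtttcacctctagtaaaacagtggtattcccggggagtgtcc
Il7r, chr15:9529877-9530126: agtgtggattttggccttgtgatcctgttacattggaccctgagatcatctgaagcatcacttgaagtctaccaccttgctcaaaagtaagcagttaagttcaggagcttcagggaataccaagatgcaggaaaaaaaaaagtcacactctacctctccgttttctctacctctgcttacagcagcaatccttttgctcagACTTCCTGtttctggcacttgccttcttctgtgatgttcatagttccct
Of the 22 genes, 16 had a window in the table. The RUNX letters were in 18.8% of them, and in 15.9% of all 27025 genes with a window. The ETS letters were in 18.8% against 3.13%, the TCF/LEF letters in 25% against 8.63%, the AP-1 letters in 6.25% against 5.16% and the T-box letters in 6.25% against 13.6%. Tmem176a and Tmem176b, whose windows taken in full share 155 bases, are 2 of the 3 genes with the ETS letters and 2 of the 4 with the TCF/LEF letters. These genes therefore do not count independently. These are matches of letters in a short window and were not tested.

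The other granule genes and death ligands had smaller differences. Of all 26 measured, with Cma1, Gzmb and Serpinb9b included, these 3 rose and 0 fell (0.033% and 0.0879% of all genes). The median of the 26 was 0.21 (0.16 between the replicate 1 arrays and 0.18 between the replicate 2 arrays) where the median of all genes was -0.01. It was 0.10 without CD27+CD11b- replicate 1. For 12 of the 26 (46.2%) both CD27+CD11b+ arrays lay above both CD27+CD11b- arrays, a pattern of 14.7% of all genes. This list and those below were drawn up with earlier results of these data known. Their shares and medians are therefore no independent evidence. Prf1, perforin, was at 11.76 and 11.94 against 12.50 and 12.76, a difference of 0.78 that did not pass (SE 0.16, limma adjusted p = 0.369). Gzma, granzyme A, differed by 0.30 (SE 0.16). The death ligand Tnfsf10, known as TRAIL, had the lowest difference of the list, at 7.49 and 7.79 against 6.49 and 6.67, and did not pass (-1.06, SE 0.18, limma adjusted p = 0.169). The other death ligand Fasl lay on the opposite side, at 0.58 (SE 0.33), with overlapping arrays.

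Receptors listed here as inhibitory changed in both directions, and what each does in these cells was not measured. Klrg1, a lectin receptor that binds cadherins, rose from 9.57 and 9.85 to 11.47 and 11.39 (1.72, SE 0.17, limma adjusted p = 0.0171). Cd160, a receptor for class I and herpesvirus entry mediator molecules, fell from 11.08 and 10.88 to 9.81 and 9.77 (-1.19, SE 0.15, limma adjusted p = 0.0407). Its 2 other probe sets above background differed by -0.68 and -1.20. Cd200r1, a receptor for the CD200 glycoprotein, fell from 7.04 and 7.13 to 5.50 and 5.46, and Cd22, a sialic acid binding lectin first known from B cells, from 8.11 and 8.03 to 6.71 and 6.38 (limma adjusted p = 0.0171 and 0.0217). For both genes the arrays of each subset lay close together and the subsets did not overlap. Of the 18 measured receptors on that list, Cd160 included, 1 rose and 3 fell (0.033% and 0.0879% of all genes), with a median of -0.15. In 9 of them (50%, against 15.6% of all genes) both CD27+CD11b+ arrays lay below both CD27+CD11b- arrays, and in 1 (5.56%, against 14.7%) above. Ctla4, which competes with CD28 for its ligands, was lower in both pairs (7.77 and 9.01 against 6.23 and 7.16) without passing (limma adjusted p = 0.582, 0.0294 with the array division as a block and 0.343 with a replicate block over the 6 arrays). Besides Cd22, 0 of the 14 B and plasma cell markers passed. Cd79a and Ms4a1, which define B cells, were near background at 5.23 or below on every CD27+ array, and the mean of that list was 5.56 and 5.47 in CD27+CD11b- against 5.28 and 5.35 in CD27+CD11b+.

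None of the 21 activating and costimulatory receptors passed, and their median was 0.03. In 8 of them (38.1%, against 14.7% of all genes) both CD27+CD11b+ arrays lay above both CD27+CD11b- arrays, and in 6 (28.6%, against 15.6%) below. Of 29 cytokine receptor genes only Il7r passed, with a median of 0.05 for the list. Leaving out 1 array moved the first median between -0.04 and 0.11 and the second between -0.16 and 0.16, so neither has a settled sign.

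Genes of movement and adhesion included 2 that rose, the sorting marker Itgam and Cmklr1. Itgam differed by 2.22 (SE 0.28, limma adjusted p = 0.0407), at least 3.89-fold when counted from the background level, below which its CD27+CD11b- mean lay. Cmklr1, the receptor for the chemoattractant chemerin, was at 6.83 and 6.82 and then at 8.14 and 8.35 (1.42, SE 0.16, limma adjusted p = 0.0279). S1pr5, a sphingosine phosphate receptor used to leave lymphoid organs, was higher on both CD27+CD11b+ arrays, at 10.69 and 10.61 against 9.88 and 9.49, and did not pass (0.97, SE 0.17, limma adjusted p = 0.226). The chemokine receptor Cxcr6 had the largest negative difference of the list and did not pass either. Its values were 7.04 and 8.39 against 4.43 and 5.32 (-2.84, SE 0.43, limma adjusted p = 0.101, 0.00791 with the array division as a block and 0.0312 with a replicate block over the 6 arrays), and a second probe set differed by -2.71. Itgb3, the integrin beta 3 chain, was at 8.11 and 8.86 against 6.68 and 7.39 (limma adjusted p = 0.383, 0.00699 with the array division as a block and 0.382 with a replicate block over the 6 arrays). The 26 homing and adhesion genes had a median of 0.24, which became 0.10 without CD27+CD11b+ replicate 1.

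Of the lists examined, genes of helper innate lymphoid cells had the lowest median. Of 16 measured, 5 fell and 0 rose (0.0879% and 0.033% of all genes). Their median was -1.38 (-1.08 in the replicate 1 and -1.38 in the replicate 2 pair). In 12 (75%) both CD27+CD11b+ arrays lay below both CD27+CD11b- arrays, a pattern of 15.6% of all genes. This list was drawn up with earlier results of these data known, so its direction is no independent evidence. Il7r, the alpha chain of the receptor for interleukin 7, fell 5.01-fold, from 11.47 and 11.70 to 9.39 and 9.13 (-2.32, SE 0.17, limma adjusted p = 0.00484), and its second probe set differed by -2.20. Tmem176b and Tmem176a encode related membrane proteins of intracellular compartments, found in helper lymphoid and myeloid cells. Tmem176b fell from 9.89 and 10.17 to 7.56 and 8.04 (-2.23, SE 0.20, limma adjusted p = 0.0107) and Tmem176a from 8.28 and 8.36 to 6.53 and 6.62 (-1.75, SE 0.17, limma adjusted p = 0.0165). Other Tmem176a probe sets differed by -2.98 and -1.68. The pair are direct neighbours with no measured gene between them and are read in opposite directions. A Tmem176a window and a Tmem176b window, each taken in full rather than cut to 250 bases, share 155 bases. The TCF/LEF letters lie in a stretch found in windows of both genes, here in capitals on the Tmem176a strand of RefSeq GRCm38.p6.
Tmem176a, chr6:48841292-48841318: gcactgtgcaATCAAAGgattccacag
Cd163l1, of the scavenger receptor family, fell from 7.91 and 8.0 to 5.88 and 5.85 (-2.10, SE 0.15, limma adjusted p = 0.00484), and a second probe set gave -2.16. Tnfrsf25, a death domain receptor that co-stimulates lymphocytes, fell from 7.38 and 8.09 to 5.68 and 5.92 (limma adjusted p = 0.0376) and was the only one of 17 tumour necrosis factor receptors to pass. Both Cd163l1 and Tnfrsf25 ended near background.

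Other helper genes were lower in both pairs without passing. Rora, a nuclear receptor needed for helper lymphoid development, was at 7.80 and 8.87 against 6.54 and 6.92 (-1.61, SE 0.34, limma adjusted p = 0.369, 0.130 with the array division as a block and 0.0854 with a replicate block over the 6 arrays). Its 5 other probe sets above background differed by -1.66 to -2.16, all with arrays that did not overlap. The stem cell factor receptor Kit was at 7.71 and 8.80 against 6.82 and 7.37, and Ltb, the membrane lymphotoxin chain, at 11.15 and 10.98 against 10.49 and 9.64. Replicate 2 was the higher CD27+CD11b- array for Rora and Kit, and so for Cxcr6. Arg1, arginase, was near background in both subsets and passed with the array division as a block (limma adjusted p = 0.0226), but not with a replicate block over the 6 arrays.

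**Figure D3:**
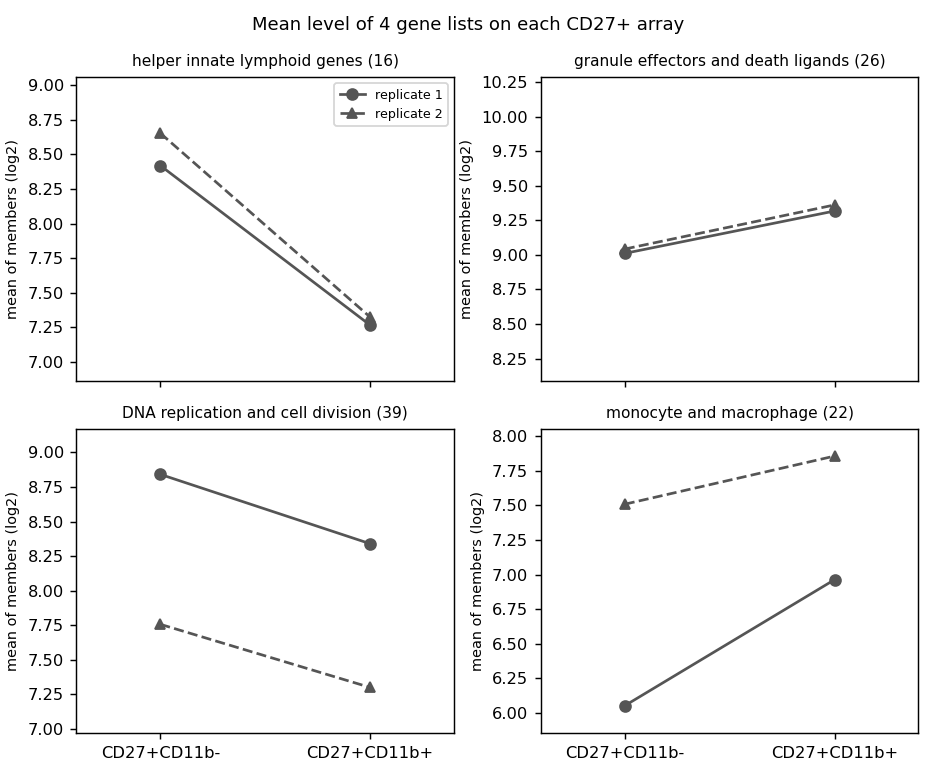
Mean log2 value of the measured members of 4 gene lists (number in brackets) on each CD27+ array, with lines joining arrays of the same replicate number; each panel spans 2.2 log2 units. The helper and granule lists differ between subsets by more than between replicates, while the cell division and macrophage lists differ more between replicates than between subsets.

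Transcripts of the T cell receptor gamma locus, which NK cells can transcribe without a productive receptor, fell. Trgv1 went from 9.78 and 9.83 to 6.35 and 6.97 (-3.14, SE 0.21, limma adjusted p = 0.00484), 8.84-fold and the largest difference of all called genes. Its neighbour Trgv4, with no measured gene between them, was near background in both subsets, at 6.19 and 6.54 against 4.42 and 4.36 (limma adjusted p = 0.0107), on a probe set whose suffix marks possible matches to other transcripts. Variable segments of this locus are similar in sequence, so the 2 may share signal. Of the 20 measured antigen receptor and T-lineage genes these 2 fell and 18 did not pass, and the median over all 20, -0.08, ranged between -0.20 and 0.10 when single arrays were dropped. Cd3d, a chain of the T cell receptor complex, was at 8.38 and 7.45 against 7.64 and 6.43, with overlapping arrays, and Cd3e was near background. Bcl11b, a factor that fixes T cell identity, was at 8.95 and 8.66 against 7.89 and 7.07 (-1.32, SE 0.28, limma adjusted p = 0.364, 0.0224 with the array division as a block and 0.396 with a replicate block over the 6 arrays), and its second probe set above background differed by -0.86.

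Among transcription factors 1 passed. Ikzf2, the Ikaros family member Helios, fell 3.18-fold, from 9.81 and 10.08 to 8.08 and 8.47 (-1.67, SE 0.18, limma adjusted p = 0.0217), and a second probe set differed by -1.56. Of the 20 progenitor and memory-type factors, 7 (35.0%, against 15.6% of all genes) had both CD27+CD11b+ arrays below both CD27+CD11b- arrays. Ahr, a receptor for aromatic ligands with a role in innate lymphoid cells, was 8.71 and 9.95 against 7.13 and 8.47, with replicate 2 the higher in each subset (-1.53, SE 0.50, limma adjusted p = 1.0, 0.0294 with the array division as a block and 0.767 with a replicate block over the 6 arrays). Maf and Sox4 differed by -0.63 and -1.17, and Sox4 by -0.04 on its other probe set above background. Lef1, a partner of beta-catenin, lay the other way at 0.38 (SE 0.16).

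Of the 21 effector and maturation factors, 0 passed, and 7 (33.3%, against 14.7% of all genes) had both CD27+CD11b+ arrays above both CD27+CD11b- arrays. Zeb2, a repressor that drives terminal maturation, was at 9.25 and 9.17 against 10.05 and 10.21, a difference that missed the threshold (0.92, SE 0.15, limma adjusted p = 0.165). Prdm1, known as the repressor Blimp1, was at 7.19 and 7.07 against 7.95 and 8.05 (0.87, SE 0.18, limma adjusted p = 0.350). The T-box factors Tbx21 and Eomes, which specify NK cells, differed by 0.52 and 0.19 (SE 0.17 each).

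The remaining called genes were enzymes and surface proteins of varied function, and each of them fell. Acpp, an acid phosphatase that can act on extracellular nucleotides, went from 8.80 and 8.84 to 7.0 and 6.68 (-1.98, SE 0.16, limma adjusted p = 0.00991). Inpp4b, which removes a phosphate from phosphoinositides and so limits Akt signalling, fell from 6.89 and 7.11 to 5.03 and 5.39 (-1.79, SE 0.19, limma adjusted p = 0.0217) and was the only one of 25 phosphoinositide enzymes to pass. Its relative Inpp4a differed by -0.36. The creatine kinase Ckb fell from 7.81 and 8.21 to 6.23 and 6.42, and the Hedgehog co-receptor Cdon from 7.46 and 7.5 to 6.18 and 6.22, both to near background (limma adjusted p = 0.0217 for each). Psd2, of a family of exchange factors for small GTPases, was near background in both subsets (6.02 and 6.67 against 4.26 and 4.55, limma adjusted p = 0.0343).

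A further 26 genes above background differed at least 2-fold in both pairs and did not pass, 1 higher and 25 lower. In 23 of them the arrays of the 2 subsets did not overlap, a pattern of 14.7% (higher) and 15.6% (lower) of all genes. The 26 were picked for a large difference in both pairs, which favours that pattern, so it adds no support. The call depended on the block. With the array division as a block 19 of the 26 passed, of 58 genes in all, and Cdca5, Ncapg, Pclaf, Rora, St6galnac3, Trib2 and Ttn did not. With a replicate block over the 6 arrays only Cxcr6 of the 26 passed. With a replicate block on the 4 CD27+ arrays 26 of 26 passed, of 493 genes in all. That block measures how alike the 2 pairs are, and the 26 were picked for a difference in both pairs, so their passing adds no support. In the CD27+ cells the array division coincides with the replicate number, so the same limit holds for it. The higher one was Entpd1, the ectonucleotidase CD39, at 4.82 and 5.40 against 7.25 and 6.68 (1.85, SE 0.25, limma adjusted p = 0.0588). Several of the lower ones act at the cell surface. Gpr183, an oxysterol receptor that guides lymphocytes, was at 8.70 and 9.88 against 7.33 and 8.30, and Sema6d, a semaphorin, at 7.52 and 8.65 against 5.86 and 6.71. The sialyltransferases St6galnac3 and St6gal1, which add terminal sialic acid to glycans, were at 8.10 and 8.55 against 5.91 and 6.03 and at 7.29 and 8.20 against 5.28 and 6.50. For Gpr183, Sema6d and St6gal1 the replicate 2 array was the higher in each subset.
Dtx1, a ubiquitin ligase induced by Notch, was at 9.83 and 8.95 against 7.83 and 7.35 (-1.80, SE 0.30, limma adjusted p = 0.153), and Asb2, a ubiquitin ligase subunit, at 8.82 and 9.05 against 7.28 and 7.65 (limma adjusted p = 0.133). Il2ra, the alpha chain of the receptor for interleukin 2, was 5.97 and 6.95 against 4.64 and 5.13. Counted from the background level of 6.39 this is at least 1.05-fold, so most of the difference lay under that level. Gm36723, a gene model, was at 10.30 and 10.22 against 8.28 and 7.85 (-2.20, SE 0.32, limma adjusted p = 0.0859). The remaining members were Ttn, Ifitm1, Adam8, Trib2, 2900026A02Rik, Adgrg3, Chst15, Ncapg, Cdca5 and Pclaf beside those named above, with differences from -1.03 (Pclaf) to -1.89 (Ttn). Counted from the background level, Ttn was at least 1.15-fold lower, Trib2 at least 1.12-fold and Adgrg3 at least 1.14-fold. Without CD27+CD11b- replicate 1 the difference was -0.24 for Pclaf, -0.28 for Cdca5 and -0.26 for Ncapg, and without CD27+CD11b- replicate 2 it was -0.95 for Ifitm1.

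**Figure D4:**
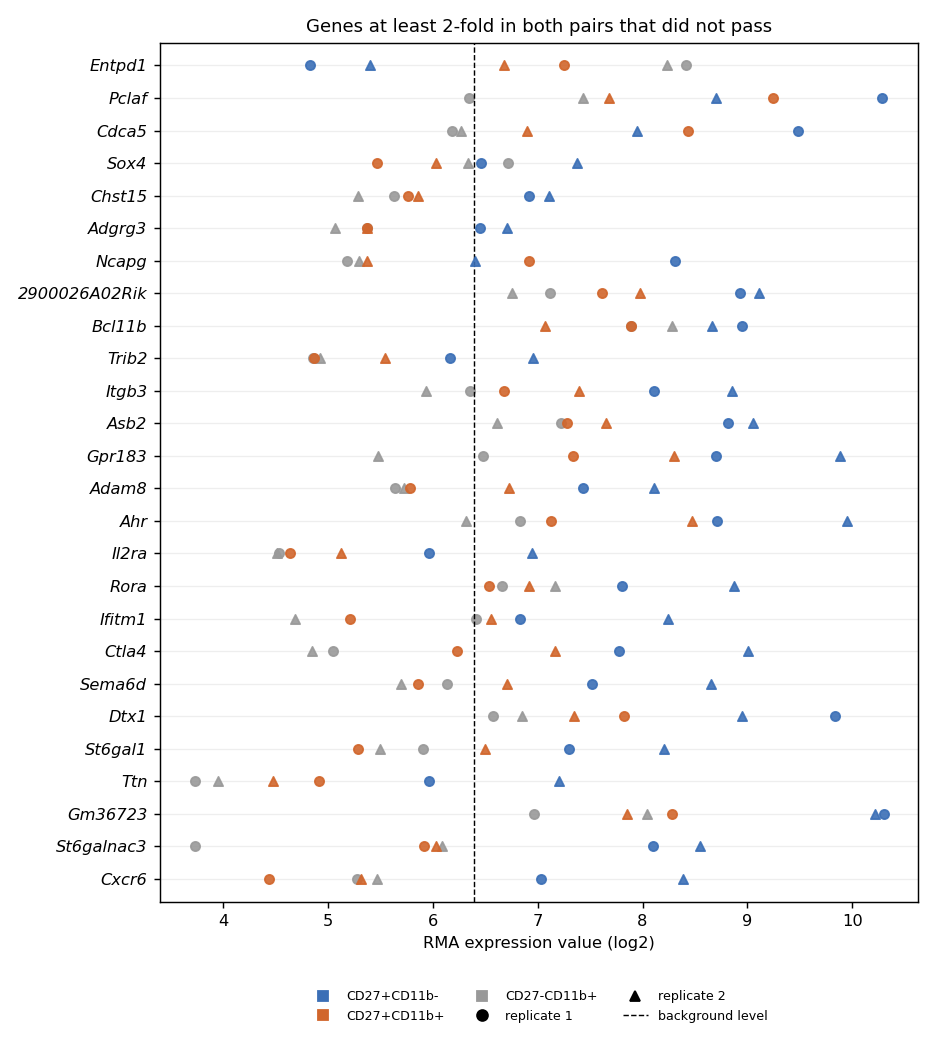
Each row is 1 of the 26 genes that differed at least 2-fold in both pairs without passing the test, with its RMA value (log2) on each array coloured by subset and shaped by replicate and the background level of 6.39 dashed. Within a subset the replicates of many rows, such as Ahr, Gpr183 and Pclaf, lie about as far apart as the subsets do. Of the CD27+ arrays the lower value of each replicate number belongs to CD27+CD11b+ in all rows but that of Entpd1. That both pairs point the same way follows from how the genes were picked.

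Genes of DNA replication and cell division had mostly negative differences, and none passed. Of 39 measured, 37 differences were negative, 0 genes passed in limma (690 of all genes had an unadjusted p under 0.05), and the median was -0.50 (-0.45 in each pair). Mki67, the proliferation marker Ki-67, was at 11.47 and 10.22 against 10.77 and 9.30, so the CD27+CD11b+ replicate 1 array was above the CD27+CD11b- replicate 2 array. The list averaged 8.84 and 7.76 in CD27+CD11b- and 8.34 and 7.30 in CD27+CD11b+, so replicate 1 was the higher in both subsets by more than the subsets differed. In 6 genes (15.4%, against 15.6% of all genes) both CD27+CD11b+ arrays lay below both CD27+CD11b- arrays, namely Mcm2, Mcm5, Cdc6, Gins1, Gins2 and Uhrf1, and in 1 (Tyms, near background) above. With the array division as a block Cdc6 passed (limma adjusted p = 0.0347), but not with a replicate block over the 6 arrays. Leaving out 1 array moved the median to -1.13 (CD27+CD11b+ replicate 1 out) or to 0.09 (CD27+CD11b- replicate 1 out).

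Transcripts of macrophages differed by more between replicates than between subsets. Of 22 monocyte and macrophage markers, 21 differences were positive and 0 passed, with a median of 0.65 (0.97 in the replicate 1 and 0.35 in the replicate 2 pair). In 3 (13.6%, against 14.7% of all genes) both CD27+CD11b+ arrays lay above both CD27+CD11b- arrays. The list averaged 6.05 and 7.51 in CD27+CD11b- and 6.96 and 7.86 in CD27+CD11b+, and 17 of the 22 were above background in at least 1 of the subsets. Csf1r, the receptor for macrophage growth factor, was at 8.41 and 10.44 against 9.44 and 10.72, and the complement gene C1qb at 4.59 and 6.81 against 6.50 and 7.44. The lowest array for both was CD27+CD11b- replicate 1. Without that array the list's median was -0.06, and without CD27+CD11b- replicate 2 it was 1.59. Genes that NK cells and macrophages share have values beside this one: Fcer1g, the signalling chain of Fc receptors, was at 10.59 and 10.54 against 11.57 and 11.34, Fcgr3, the Fc receptor CD16, at 8.71 and 8.57 against 9.62 and 9.39, and the adaptor Lat2 at 7.04 and 6.63 against 8.46 and 7.21. None of these passed, and the part of macrophage RNA in them or in Itgam, which macrophages also express, was not tested. In bulk samples fewer cells of a type and less RNA per cell cannot be told apart.

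**Figure D5:**
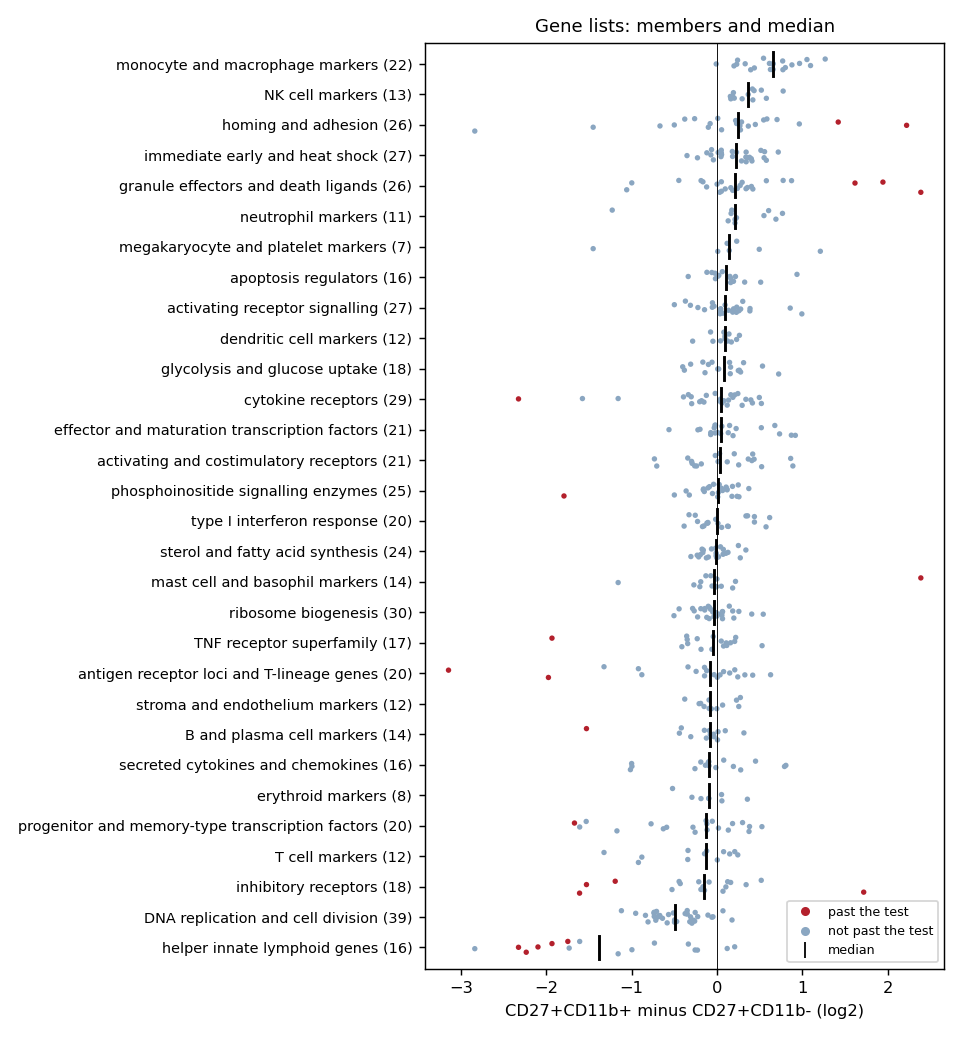
Each row is a gene list with the number of measured members, each point a member's log2 difference between CD27+CD11b+ and CD27+CD11b- cells (red where it passed the test), and the black bar the list's median. The helper innate lymphoid list has the lowest median at -1.38, and the macrophage list the highest at 0.65 with no member past the test.

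NK cell markers differed little. All 13 measured differences were positive, with a median of 0.37 (0.32 and 0.35 in the pairs), 8 (61.5%, against 14.7% of all genes) had both CD27+CD11b+ arrays above both CD27+CD11b- arrays, and 0 passed. The median was 0.24 without CD27+CD11b+ replicate 2. In the other lists without a called gene, medians lay between -0.13 (T cell markers) and 0.23 (immediate early and heat shock genes), and the latter was -0.02 without CD27+CD11b- replicate 1. The chemokines Ccl3 and Ccl4, which recruit other leukocytes, were at 10.80 and 10.74 against 11.48 and 11.64 and at 9.97 and 10.23 against 10.87 and 10.95, without passing. Pmaip1, the death regulator Noxa, was at 6.63 and 7.01 against 7.79 and 7.73 (0.94, SE 0.17, limma adjusted p = 0.264).

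The difference between the 2 steps was tested in the same limma fit. It is the difference at the gain of CD11b minus that at the later loss of CD27, each with its sign. A gene that falls and then rises also scores high, so the test does not ask which step is larger. Both steps share the CD27+CD11b+ arrays. None of the 22 genes passed that test (lowest adjusted p = 0.223, for Cd163l1; 547 of all genes, 3.01%, had an unadjusted p under 0.05), so no gene is shown to be particular to the gain of CD11b. The 1 gene of 18193 (0.0055%) that passed was Kcnj8, a potassium channel subunit, which differed by 0.44 at the gain of CD11b and by 3.94 at the loss of CD27 (limma adjusted p = 0.0314). It did not pass with any 1 array left out (limma adjusted p from 0.0652 to 0.592), and 0 genes passed this test with a replicate block, over all probe sets with 1 symbol or with 32 added to the linear values. All 6 genes that rose were higher again in CD27-CD11b+ cells, with further differences of 0.88 (Gzmb) to 2.02 (Cma1). The 16 that fell divide by value into 7 with a further difference of -0.50 or lower and 9 within 0.25 of 0. Il7r (-1.96), Cd160 (-1.47), Acpp (-1.32) and Trgv1 (-1.14) were among the 7, and Tmem176b (-0.06), Tmem176a (-0.05), Cd163l1 (-0.09), Ckb (0.04), Cdon (-0.07), Cd200r1 (0.17) and Tnfrsf25 (0.14) among the 9. Of these 9, Cd163l1, Ckb, Cdon, Cd200r1, Tnfrsf25, Trgv4 and Psd2 had already reached the background level in CD27+CD11b+ cells, where no further fall could be read, and so had Inpp4b, 1 of the 7. The probe sets used for Tmem176a and Tmem176b were still above it, but the other Tmem176a probe sets were under it at 4.74 and 6.30.

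Other probe sets gave a limited check on the choice of 1 per gene. Of 63 further probe sets of the genes named by size, 18 were above background, from 12 genes, and 18 of 18 had the direction of the probe set used, with 1 (of Sox4) under 0.5 times its difference. Being above background in 1 subset was enough, so probe sets of fallen genes could enter through CD27+CD11b- alone, which favours the same direction. Those near background included both directions.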

How the data were processed

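Expression of NK1.1+ spleen cells from RAG-/- mice was measured on Affymetrix mouse whole-genome arrays, 2 per subset. The deposited values are log2 and come from RMA according to the authors (per the submitters' processing notes), while version and chip definition were not given in the sources used here. This method equalises array distributions and compresses differences of dim genes. Of 45101 probe sets, 64 were controls, 34945 had 1 gene symbol, 932 several (among them that of NK1.1, so its gene is not named) and 9160 none. Each of 18193 genes was represented by its probe set with the highest mean.

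A limma 3.58.1 model (R 4.3.3) with 1 mean per subset over 6 arrays (3 residual, 4.93 prior degrees of freedom) was adjusted by Benjamini-Hochberg over all genes, and calls were at an adjusted p under 0.05. The script was tested on simulated data. Named genes were those called, those at least 2-fold different in both same-numbered pairs and above background, and list members. A fold is written "at least" where the lower mean was under the background level, from which it was then counted. The members and lists were chosen with earlier results of these data known. Promoter windows, 250 bases before the start, came from RefSeq (GRCm38.p6). The number of arrays limits the precision. Alternatives changed the probe set rule, arrays, blocks, scaling, low values and variance model.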

Additional observations from a re-analysis of the deposited data

How the results depend on the processing

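The gain of CD11b gave 22 called genes in limma and the difference between the steps gave 1. For the gain, the count was 12 (10 shared) over all probe sets with 1 symbol, 11 (10 shared) with the mean of a gene's probe sets, 12 (10 shared) in a fit of the 4 CD27+ arrays alone, 58 (all 22 shared) with the division on 3 unnamed probe sets as a block, 0 with 32 added to the linear values (843 at an unadjusted p under 0.05) and 0 over all probe sets, named or not, an alternative chosen after seeing the data (1339 unadjusted). It was 4 to 30 with 1 array left out. For the difference between steps, the count was 0 over all probe sets with 1 symbol (508 unadjusted), 2 among genes above background, 2 with the division as a block, 3 with limma's trend and robust options, 0 with 32 added (799), 0 over all probe sets (1146) and 0 to 0 with 1 array left out (479 to 984 unadjusted). The other alternatives gave 19 to 32 calls for the gain, apart from 493 with a replicate block over the 4 CD27+ arrays. Under any of them 0 named genes changed direction.

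The labels give the same replicate numbers to each subset but no shared animal or batch. Deviations of same-numbered replicates correlated at 0.62 between the CD27+ subsets and at -0.25 and -0.14 with the CD27-CD11b+ subset, so the numbers do not pair arrays over the 3 subsets. The division on 3 unnamed probe sets runs against the numbers in CD27-CD11b+, and matched by it the correlations were 0.62, 0.25 and 0.14. No label names this division, and it was picked from these same data, so it stayed an alternative. With a replicate block, 19 genes (18 shared) were called over 6 arrays and 0 for the difference between steps (720 unadjusted), and 493 (227 higher, 266 lower, all 22 shared) over the 4 CD27+ arrays.

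With 2 arrays per subset a call rests on few degrees of freedom, and values near the background level of 6.39 bound a difference only from below.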
